A study of Mus musculus with 12 samples.

Results

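The comparison set the retinas of JR5558 mice against those of C57BL/6J mice at 4 weeks of age. Its members are 6 of the 12 libraries of the series, 3 retinas per strain, each from a separate mouse, and genes of chromosomes X and Y were left out. JR5558 is an inbred line that carries the rd8 frameshift allele of Crb1 together with a mutant allele of Jak3 and forms new vessels under the retina spontaneously. C57BL/6J is the standard inbred strain and served as the wild-type control. The labels give no treatment for either group. No labels give the sex of the mice or say that the 2 strains were littermates, so any allele that differs between the colonies enters the comparison with the alleles of Crb1 and Jak3. Messenger RNA of whole retina, captured by its poly-A tail, was read as paired ends, and 17735 of 52536 genes outside X and Y had enough counts to be tested.

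Crb1 is a membrane protein at the junctions between photoreceptors and Müller glia, the radial glia that span the retina, and its loss lets the outer limiting membrane break. Jak3 is a kinase bound to the cytokine receptors of lymphocytes. Rods and cones need the pigment epithelium behind them to recycle their pigment, and injured photoreceptors are known to signal to Müller glia through endothelin and fibroblast growth factors. Müller glia and microglia, the resident macrophages, then turn on reactive genes, and the receptors for interleukin 6-type cytokines act through Jak kinases and Stat3. All samples are bulk tissue, in which fewer cells of a type and less RNA per cell cannot be told apart.

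Single retinas are named by strain and replicate number, so that C57BL/6J-2 is the second control. Library totals were 18029611 to 23739886 counts. Correlations of log2 CPM (counts per 1000000 on TMM-scaled library sizes) were 0.970 to 0.986 within the groups and 0.956 to 0.974 between them. JR5558-3 stood apart from the other JR5558 retinas on the second principal component of the 500 most variable genes, at 25.6 against -14.4 and -20.3. The 3 JR5558 retinas held 0 to 5 counts of Xist and 1323 to 1846 of the Y-linked Ddx3y, whereas the other 9 libraries of the series held 7772 to 22988 counts of Xist and none of Ddx3y. Sex and strain therefore cannot be told apart at 4 weeks for genes of the other chromosomes. RNA of neighbouring tissues differed as well. The summed level of 24 pigment epithelium genes ran from 253 to 481 CPM among the controls and from 599 to 834 CPM among the JR5558 retinas, without overlap and with none of the 24 at 0. The summed level of 18 lens genes ran from 12.1 to 178 CPM in C57BL/6J, highest in C57BL/6J-3, against 2.57 to 47.1 CPM, with Lim2 at 0 in all 6 retinas. Lists for blood and lymphocytes (29.1 to 56.7 against 44.9 to 60.1 CPM, Cd3e and Nkg7 at 0) and muscle (11.5 to 12.8 against 10.4 to 12.7 CPM, Myh2 at 0) overlapped, and myelin genes (57.9 to 64.7 against 66.2 to 69.0 CPM, Olig2 at 0) did not. The rod genes identified the tissue: 40 of them together took 96576 to 103460 CPM of the control libraries and 92485 to 102580 CPM of the others.

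Of the 17735 genes tested, 1095 (6.17%) differed between the strains with an adjusted p under 0.05 in edgeR's quasi-likelihood test, called here. JR5558 was higher for 583 of them (3.29% of the tested genes) and lower for 512 (2.89%). At least 2-fold changes were found for 376 called genes, 218 higher and 158 lower, and 468 called genes changed by less than 1.5-fold. The groups did not overlap for 1080 of the 1095, against 19.6% of all tested genes. The median log2 fold change over all tested genes was -0.00, near 0 as TMM scaling makes it. Shares called were similar among gene kinds: 6.29% of 14175 protein-coding genes, 5.57% of 2171 long non-coding RNAs and 7.14% of 868 pseudogenes. In the authors' deposited table, of the tested genes, 717 had an adjusted p under 0.05, and 711 of these were among the 1095. Below, errors after ± are standard errors of a log2 fold change (JR5558 minus C57BL/6J) and n is 3 retinas per group.

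**Figure D1:**
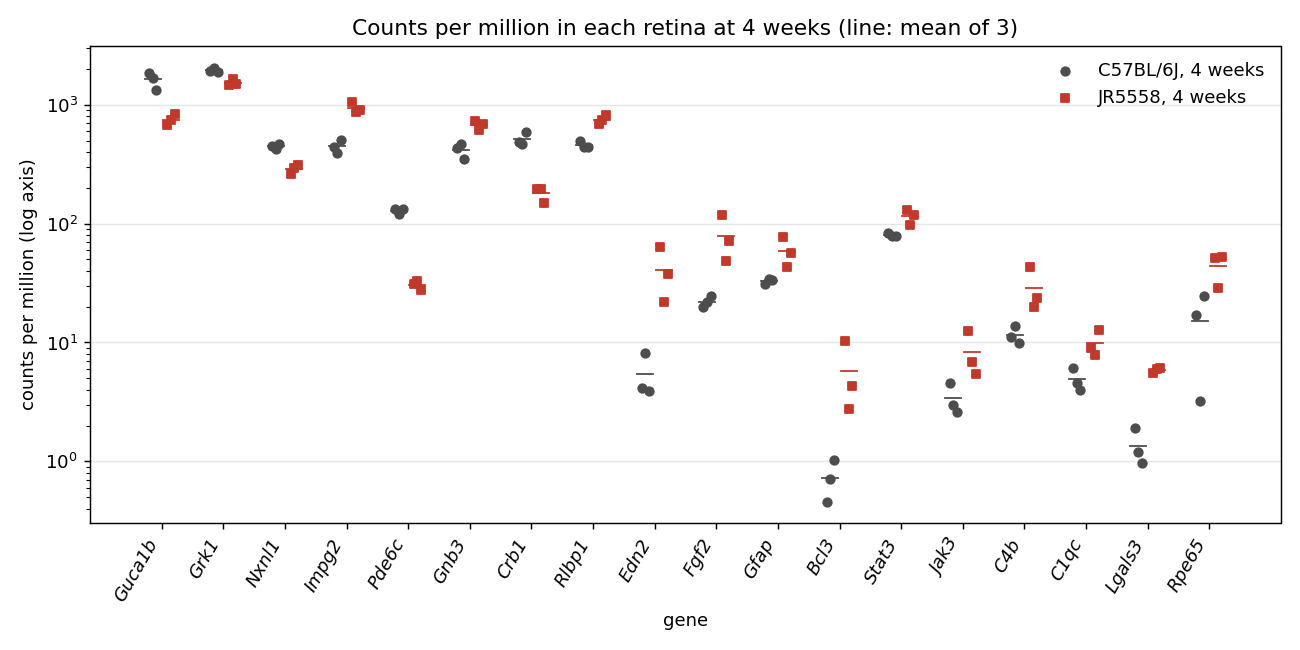
Each point is 1 retina at 4 weeks: the y axis gives CPM on a log axis, the x axis the gene, with circles for C57BL/6J, squares for JR5558 and a line at the mean of 3. The groups of Crb1, Pde6c, Edn2 and the other genes shown do not overlap.

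The gene that defines the line was lower. Crb1 stood at 485, 472 and 594 CPM in the controls and at 195, 195 and 148 CPM in JR5558. The log2 fold change was -1.53 ± 0.10 (adjusted p = 6.41e-09, edgeR). Every JR5558 retina held less than any C57BL/6J retina by a wide margin. The counts do not show whether the remaining transcripts carry the frameshift. Jak3, in contrast, was higher: its level was 4.52, 3.00 and 2.62 CPM in the controls and 12.5, 6.88 and 5.40 CPM in JR5558. That is a log2 fold change of 1.30 ± 0.27, with an adjusted p of 0.00531 in edgeR. JR5558-1 was the highest, and the groups did not overlap. Jak1, a family member that most cytokine receptors use, was at 0.00 ± 0.08 (adjusted p = 0.991). Of 27 tested genes for apical polarity and adherens junctions, 7.41% were called, beside 6.17% of all tested genes. Among these calls 1 was lower, Crb1 itself, and 1 was higher. The higher one, Cdh2, encodes N-cadherin of the outer limiting membrane (0.27 ± 0.07, adjusted p = 0.0323); its call was lost without any 1 of 4 libraries, with adjusted p up to 0.171 without C57BL/6J-2. The median of this list was -0.03.

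The largest differences were genes read in 1 strain and almost or fully absent in the other. Klk1b22, a glandular kallikrein protease, had 1431 counts over the 3 JR5558 retinas and 0 in C57BL/6J, which makes it at least 434-fold higher taking 3 counts in all 3 libraries together as the floor. Ces1a, a carboxylesterase, had 360 counts against 0 (at least 109-fold higher), Itprid1 had 90 against 0 (at least 27.3-fold higher) and Trim43b 87 against 0 (at least 26.4-fold higher). In the other direction, Tnfrsf8, the receptor CD30 of activated lymphocytes, had 736 counts in C57BL/6J and 0 in JR5558 (at least 269.5-fold lower), and Trim12a had 112 and 0 (at least 41.0-fold lower). Zfp429, a zinc finger protein, had 146 and 2, a ratio of 80.2 with an exact 95% counting interval of 21.8 to 669. The interval and floors cover counting error only. Only named genes whose groups did not overlap were eligible here, so overlap could not occur among these 7. Over all called genes, 11 had 0 counts in C57BL/6J and 19 had 0 in JR5558. All 7 were called at 8 weeks in the same direction.

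Among genes with counts in both strains, those that differed most included well-known enzymes and receptors. Higher in JR5558 were the testis-linked transcription factor Sox30 (5.78 ± 0.22), the neuropeptide gene Npvf (5.52 ± 0.55), the GTPase-activating protein Tagap (5.21 ± 0.30), the transglutaminase Tgm3 (4.75 ± 0.21) and Gnat3, gustducin of taste cells (4.61 ± 0.39). Sox30 gave 0.745, 1.04 and 0.679 CPM in the 3 controls against 58.2, 39.7 and 37.4 CPM in the JR5558 retinas. Lower were Pttg1, securin of the cell cycle (-6.38 ± 0.29), Ppara, the receptor that turns on fatty acid oxidation (-5.02 ± 0.32), the calpain Capn11 (-4.47 ± 0.38), Eps8l1 (-4.21 ± 0.87), the zinc finger gene Zfp982 (-3.95 ± 0.62) and histidine decarboxylase Hdc (-3.31 ± 0.19). Ppara was read at 12.9, 16.0 and 14.3 CPM in the control strain, and at 0.340, 0.215 and 0.757 CPM in JR5558. Its fall was the only call among 20 genes of fatty acid oxidation, whose median was 0.07: Cpt1a, the entry step into mitochondria, was at -0.10 ± 0.08 (adjusted p = 0.513). Pttg1 stood at 23.1, 22.9 and 20.4 CPM in the controls and at 0.170, 0.430 and 0.202 CPM in JR5558. It was also the only called gene of 12 proliferation genes (8.33%, beside 5% of the fatty acid list and 6.17% of all tested genes). Outside the proliferation list, the kinetochore subunit Spc25 (-1.98 ± 0.10) and the checkpoint kinase Bub1b (-1.89 ± 0.17), named for their small p, were lower. Further genes with very small adjusted p were the endosomal Wdfy1 (1.67 ± 0.09), Rab37 (2.34 ± 0.13), Klhl8 (1.37 ± 0.08) and the peptidase Trhde (2.04 ± 0.13), all higher, and the antisense transcript Uckl1os (-1.53 ± 0.09), lower and uncertain because the labels do not say whether the libraries kept strand.

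A few photoreceptor genes changed, in both directions. Of 40 tested genes of rod phototransduction and outer segments, 2 were higher and 4 lower, beside 3.29% and 2.89% of all tested genes. Their median was -0.02, and without C57BL/6J-2 the higher count was 4. Guca1b, which switches guanylate cyclase back on when calcium falls after light, fell the most. Guca1b gave 1870.4, 1697 and 1343 CPM in the 3 controls against 673, 749 and 835 CPM in the JR5558 retinas. On the log2 scale the difference was -1.12 ± 0.10 (edgeR, adjusted p = 4.70e-07). The photoreceptor kinase Grk1 (-0.35 ± 0.06) and the actin bundler Fscn2 of outer segment discs (-0.47 ± 0.09) were lower as well. Impg2, a proteoglycan of the matrix around outer segments, was higher. Impg2 was read at 440.4, 391 and 511 CPM in the control strain, and at 1066, 875 and 903 CPM in JR5558. Its log2 fold change came to 1.08 ± 0.09 (adjusted p = 2.02e-07 by edgeR). The transcriptional co-repressor Samd7 was higher too (0.43 ± 0.07). Abundant members that did not pass were transducin Gnat1 at -0.00 ± 0.06 (adjusted p = 0.994) and peripherin Prph2 at -0.03 ± 0.08 (adjusted p = 0.905). Nxnl1, which encodes the rod-derived cone viability factor and was named after its values were seen, was lower. Nxnl1 stood at 447, 424 and 467 CPM in the controls and at 262, 293 and 311 CPM in JR5558. This gave -0.63 ± 0.07 on the log2 scale with an adjusted p of 1.43e-05 (edgeR).

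Cones showed the sharpest single fall of a photoreceptor gene. Pde6c gave 133, 120.0 and 133 CPM in the 3 controls against 31.0, 32.7 and 27.8 CPM in the JR5558 retinas. This gene encodes the catalytic subunit of the cone phosphodiesterase, and its log2 fold change was -2.08 ± 0.09 with an adjusted p of 1.13e-11 in edgeR's test. The other called genes of the 16-gene cone list were higher: Gnb3, the beta subunit of cone transducin (0.70 ± 0.09), the short-wavelength opsin Opn1sw (0.36 ± 0.07) and the transcription factor Tbx2 (0.35 ± 0.09), whose call was lost without C57BL/6J-3, JR5558-2 or JR5558-3, with adjusted p of 0.0514 to 0.0802. Gnb3 was read at 437, 466 and 353 CPM in the control strain, and at 727, 619 and 693 CPM in JR5558. Cone transducin alpha, Gnat2, was at 0.12 ± 0.07 (adjusted p = 0.391) and the inhibitory subunit Pde6h at 0.17 ± 0.08 (adjusted p = 0.294). Summed over the list, the level ran from 1971 to 2103 CPM in the controls and from 2420 to 2478 CPM in the other strain, without overlap. The rise of Gnb3 is part of this sum, and the median log2 fold change of the list was 0.13. None of 22 tested ribbon synapse genes was called in edgeR (4 had an unadjusted p under 0.05) or in DESeq2; edgeR called 2 lower without C57BL/6J-3 and 1 without JR5558-1.

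Among inner neurons, calls were found mainly in bipolar cell genes, 3 higher and 1 lower of 20, beside 3.29% and 2.89% of all tested genes; the higher count was 2 without C57BL/6J-2, C57BL/6J-3, JR5558-2 or JR5558-3. Vsx1 stood at 41.0, 40.2 and 35.5 CPM in the controls and at 53.9, 54.3 and 61.7 CPM in JR5558. The log2 fold change was 0.54 ± 0.09 (adjusted p = 9.13e-04, edgeR). Vsx1, a transcription factor of cone bipolar cells, was thus higher, and the groups did not overlap. The calls of Fezf2 (0.48 ± 0.14) and Prdm8 (-0.31 ± 0.09) were each lost without any 1 of 4 libraries, with adjusted p up to 0.143 without C57BL/6J-3 and up to 0.148 without JR5558-3. None of 27 amacrine genes was called in edgeR (2 had an unadjusted p under 0.05, and DESeq2 called 1). A single call each among 20 ganglion cell genes (lower) and 8 horizontal cell genes (higher) was lost without JR5558-2, the former also without C57BL/6J-1, C57BL/6J-2 or JR5558-3, and the medians of the 3 lists lay between -0.03 and 0.01.

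Several genes of Müller glia rose. Of 22 genes of resting Müller glia, 8 were higher, none was lower and the median was 0.21, beside 3.29% of all tested genes called higher. Rlbp1 gave 496, 438 and 438 CPM in the 3 controls against 689, 744 and 823 CPM in the JR5558 retinas. Rlbp1 encodes the retinaldehyde-binding protein that Müller glia and the pigment epithelium share, and it rose by 0.72 ± 0.08 (adjusted p = 3.58e-06). Crym, which binds thyroid hormone in the cytosol, was at 1.07 ± 0.11, the potassium channel Kcnj10 at 0.58 ± 0.08, carbonic anhydrase Car2 at 0.43 ± 0.07 and the orphan receptor Gpr37 at 0.38 ± 0.07. Glutamine synthetase, Glul, the enzyme that clears transmitter glutamate, was at 0.02 ± 0.08 (adjusted p = 0.931), and Apoe at 0.08 ± 0.17 (adjusted p = 0.860). A second fit held a term for pigment epithelium RNA, the average log2 level of its 24 genes, which was 2.18 to 3.08 in C57BL/6J and 3.45 to 3.88 in JR5558; with that term 2 Müller genes were called, and of the photoreceptor genes Guca1b, Impg2, Nxnl1, Pde6c and Gnb3 were. The part of pigment epithelium RNA in the strain differences was not tested.

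The glial reactivity list stood out further: 12 of 25 tested were higher and none was lower, beside 3.29% and 2.89% of all tested genes. Its median was 0.52. The list also includes Edn2 and Fgf2, signals from photoreceptors to glia. Edn2 was read at 4.12, 8.08 and 3.93 CPM in the control strain, and at 63.5, 21.8 and 37.5 CPM in JR5558. That is a log2 fold change of 2.94 ± 0.31, with an adjusted p of 3.72e-06 in edgeR. Edn2 encodes endothelin-2, which injured photoreceptors release. Fgf2, a growth factor with the same source, followed the same order among the JR5558 retinas. Fgf2 stood at 19.7, 22.1 and 24.6 CPM in the controls and at 118, 48.5 and 71.7 CPM in JR5558. On the log2 scale the difference was 1.84 ± 0.21 (edgeR, adjusted p = 8.44e-06). The protease inhibitors A2m (2.18 ± 0.26) and Serpina3n (1.68 ± 0.26) and the growth factor binder Igfbp5 (0.57 ± 0.09) rose as well. Other called members were named after their values were seen. Gfap gave 30.8, 34.3 and 33.4 CPM in the 3 controls against 77.8, 43.5 and 56.9 CPM in the JR5558 retinas. Gfap, the intermediate filament of reactive glia, was at 0.86 ± 0.15 (adjusted p = 0.00139) and Vim, another filament gene, at 0.43 ± 0.09 (adjusted p = 0.00496). Bcl3 was read at 0.458, 0.710 and 1.02 CPM in the control strain, and at 10.2, 2.74 and 4.34 CPM in JR5558. Bcl3, a co-regulator of NF-kappa B, was at 2.97 ± 0.48 (adjusted p = 4.77e-04). JR5558-1 was the highest and JR5558-2 the lowest for Edn2, Fgf2, A2m, Serpina3n, Gfap and Bcl3, and the groups did not overlap for any of them. Metallothionein Mt1 was at 0.47 ± 0.15 (adjusted p = 0.0817). With the pigment epithelium term 1 gene of the list was called, Edn2. Bcl3 (2.64), Serpina3n (1.38) and Igfbp5 (0.54) lost their calls at values near those without the term. Gfap (0.49), A2m (1.27) and Osmr (0.49), which is described below, moved further towards 0. Over single libraries left out the count ran from 11 to 14.

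With the pigment epithelium term none of 25 genes of JAK-STAT signalling was called. Without it 4 were higher and none was lower, with a median of 0.16, beside 3.29% and 2.89% of all tested genes. Besides Jak3 these were Stat3, the transcription factor itself, the oncostatin M receptor Osmr and Socs3, the inhibitor that Stat3 turns on. The calls of Stat3, Osmr and Socs3 are also among the 12 of the glial list above. Stat3 stood at 83.3, 78.1 and 79.2 CPM in the controls and at 131, 96.6 and 118 CPM in JR5558. Its log2 fold change came to 0.52 ± 0.09 (adjusted p = 0.00157 by edgeR). Osmr gave 7.22, 7.15 and 9.74 CPM in the 3 controls against 23.1, 13.7 and 12.3 CPM in the JR5558 retinas. This gave 1.03 ± 0.20 on the log2 scale with an adjusted p of 0.00318 (edgeR). Socs3 was read at 5.67, 6.12 and 4.02 CPM in the control strain, and at 16.0, 5.11 and 10.5 CPM in JR5558. Socs3 stood at 1.01 ± 0.28 (adjusted p = 0.0369), JR5558-2 overlapped the controls, and its call was lost without any 1 of 5 libraries, with adjusted p up to 0.226 without JR5558-1. The shared receptor chain Il6st was at 0.14 ± 0.09 (adjusted p = 0.421). Stat proteins bind the palindrome TTCNNNGAA, and the 250 bases before the RefSeq starts (GRCm38.p6) were searched for it because these genes moved together. Of 11 called members of the glial and JAK-STAT lists with a promoter entry, 1 held it, Socs3, beside 8.13% of all 27025 genes with an entry and 1 of 29 other members of these lists. The match, in capitals, lay 154 bases before the start, at chr11:117969492-117969540 on the minus strand:
Socs3: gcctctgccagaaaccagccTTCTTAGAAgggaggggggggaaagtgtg
This is a match of letters and no measurement of binding.

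**Figure D2:**
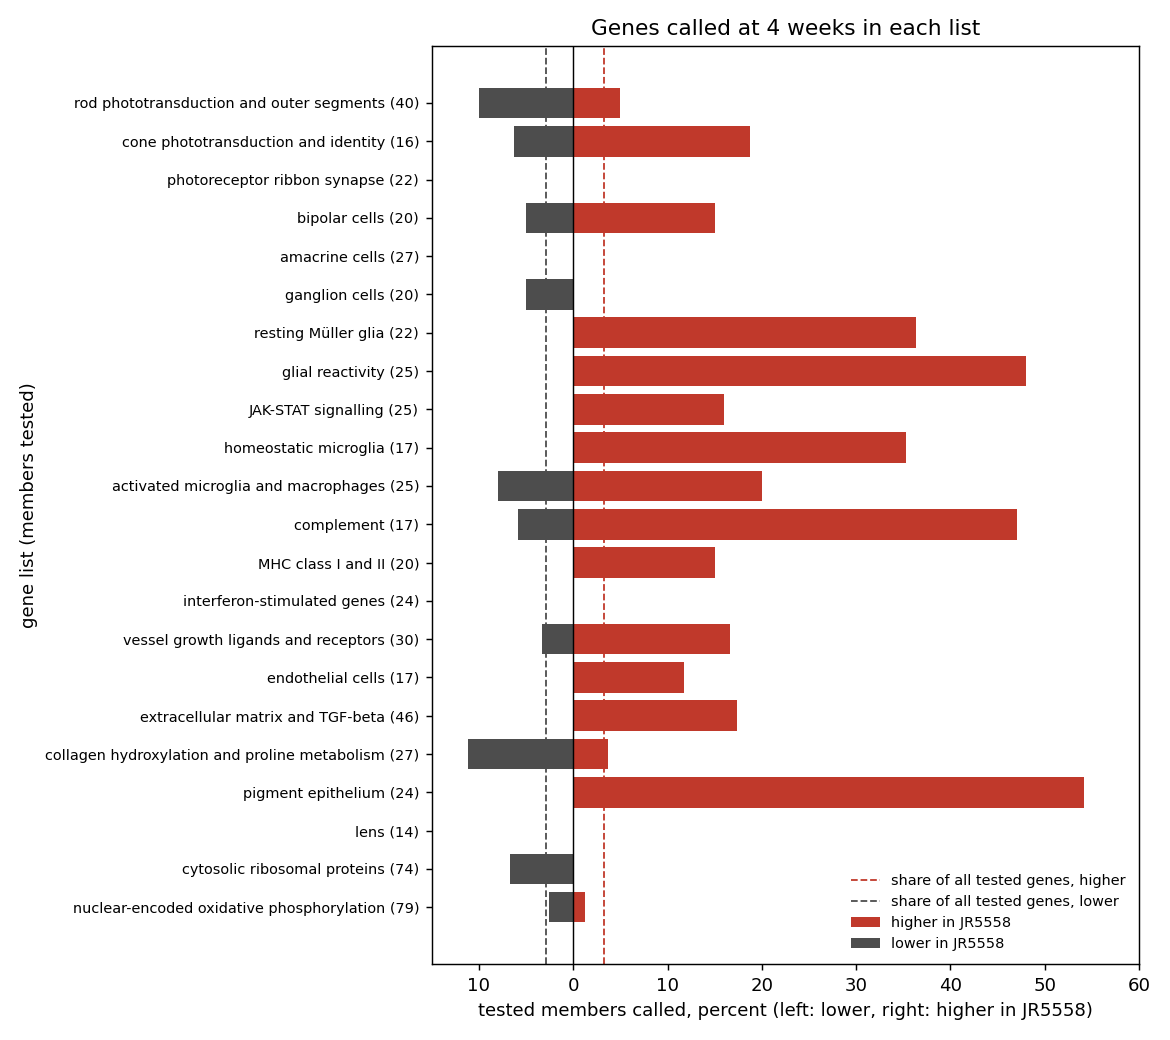
Bars give the percent of tested members of each gene list that were called, to the right for higher and to the left for lower in JR5558, with the number tested in brackets and dashed lines at the shares over all tested genes. Pigment epithelium, complement, glial reactivity, resting Müller glia and homeostatic microglia reach furthest right, and ribbon synapse, amacrine, interferon and lens lists hold no call.

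A minority of microglial genes were called, most of them higher. The shares over all tested genes were 3.29% higher and 2.89% lower. Of 17 homeostatic microglia genes, 6 were higher and none was lower, with a median of 0.25 and a summed level of 122 to 136 CPM in the controls against 154 to 174 CPM. They included Olfml3 (0.91 ± 0.13), the phagocytic receptor Mertk (0.89 ± 0.15), which the pigment epithelium also uses, and the complement gene C1qc. C1qc stood at 6.13, 4.53 and 3.98 CPM in the controls and at 8.96, 7.85 and 12.7 CPM in JR5558. The log2 fold change was 1.02 ± 0.22 (adjusted p = 0.00781, edgeR). C1qb (0.81 ± 0.21) passed too, but its call was lost without C57BL/6J-2 (adjusted p = 0.108), C57BL/6J-3 (0.0732), JR5558-1 (0.115) or JR5558-3 (0.0608). The receptors that define these cells did not pass: Cx3cr1 was at 0.39 ± 0.20 (adjusted p = 0.297) and Csf1r at 0.25 ± 0.13 (adjusted p = 0.290). Among 25 genes of activated microglia and macrophages 5 were higher and 2 lower. Galectin-3, Lgals3, was clearest. Lgals3 gave 1.89, 1.20 and 0.970 CPM in the 3 controls against 5.56, 5.97 and 6.06 CPM in the JR5558 retinas. That is a log2 fold change of 2.12 ± 0.25, with an adjusted p of 1.34e-05 in edgeR. Cathepsin D, Ctsd, was at 0.38 ± 0.08, whereas the fatty acid binder Fabp5 (-0.84 ± 0.12) and lipoprotein lipase Lpl (-0.64 ± 0.13) fell. Without JR5558-1 the higher count of the activated list went from 5 to 2, and that of the homeostatic list went from 6 to 3 without C57BL/6J-2, JR5558-1 or JR5558-3. With the pigment epithelium term no homeostatic gene and 1 activated gene was called higher, and no activated gene lower.

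Beside 3.29% of all tested genes called higher and 2.89% lower, complement showed one of the densest sets of calls, 8 higher and 1 lower of 17 tested. C3, on which all activation routes meet, and C4b of the classical route were among them. C3 was read at 2.00, 1.20 and 2.67 CPM in the control strain, and at 7.30, 4.62 and 6.06 CPM in JR5558. On the log2 scale the difference was 1.61 ± 0.29 (edgeR, adjusted p = 0.00163). C4b stood at 11.1, 13.9 and 9.99 CPM in the controls and at 43.2, 19.8 and 23.6 CPM in JR5558. Its log2 fold change came to 1.32 ± 0.22 (adjusted p = 8.10e-04 by edgeR). Clusterin, Clu, which restrains the terminal complex, was at 0.40 ± 0.08. Its call is also counted among resting Müller glia genes, and those of C1qb and C1qc among homeostatic microglia genes. The lower gene was Cd59a, the membrane inhibitor of the terminal complex. Cd59a gave 46.8, 47.2 and 50.7 CPM in the 3 controls against 15.1, 16.5 and 8.17 CPM in the JR5558 retinas. This gave -1.86 ± 0.17 on the log2 scale with an adjusted p of 5.21e-07 (edgeR). With the pigment epithelium term no complement gene was called higher, and Cd59a was still called lower. C1qc (1.02) and C4b (1.22) were then near their values without the term, whereas C3 was at 0.47, C1qb at 0.29 and Clu at 0.20. The higher count was 5 without C57BL/6J-2, C57BL/6J-3, JR5558-1 or JR5558-3. Antigen presentation followed at 3 of 20 genes higher: H2-D1 of class I (0.74 ± 0.14), and the class II chain H2-Aa (1.88 ± 0.54) and its partner Cd74 (1.85 ± 0.34). Cd74 was read at 0.630, 1.09 and 0.582 CPM in the control strain, and at 2.72, 3.28 and 2.32 CPM in JR5558. The call of H2-Aa was lost without any 1 of 5 libraries, with adjusted p up to 0.141 without C57BL/6J-2, and with the pigment epithelium term none of the list was called, though H2-D1 was at 0.72 (adjusted p = 0.245) and Cd74 at 2.43 (adjusted p = 0.0608). None of 24 interferon-stimulated genes was called in edgeR's test (3 had an unadjusted p under 0.05) or in DESeq2; without JR5558-2 edgeR called 2 higher.

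Most genes of vessel growth did not pass. The shares over all tested genes were 3.29% higher and 2.89% lower. Of 30 ligands and receptors of vessel growth, 5 were higher and 1 lower, with a median of 0.13; the lower call was lost without C57BL/6J-2, C57BL/6J-3, JR5558-2 or JR5558-3. Kdr stood at 179, 164 and 197 CPM in the controls and at 304, 282 and 306 CPM in JR5558. Kdr, the main receptor for vascular endothelial growth factor, rose by 0.72 ± 0.07 (adjusted p = 1.79e-06). Its ligand Vegfa was at 0.12 ± 0.10 (adjusted p = 0.555). Fgf1 (0.62 ± 0.08), the protease Adamts1 (0.67 ± 0.11) and thrombospondin-1, Thbs1, an inhibitor of new vessels, were higher with Fgf2, which the glial list also counts. Thbs1 gave 7.50, 4.97 and 10.8 CPM in the 3 controls against 38.3, 18.7 and 33.8 CPM in the JR5558 retinas. The log2 fold change was 1.96 ± 0.24 (adjusted p = 3.24e-05, edgeR). Endothelial identity genes gave 2 higher calls of 17: Plvap of fenestrated vessels (0.84 ± 0.15) and Ramp2 (0.59 ± 0.17), the latter lost without any 1 of 5 libraries, with adjusted p up to 0.177 without C57BL/6J-2. Plvap was read at 5.73, 5.41 and 4.56 CPM in the control strain, and at 9.13, 9.79 and 9.18 CPM in JR5558. The tight junction gene Cldn5 was at 0.07 ± 0.14 (adjusted p = 0.857) and the summed endothelial level overlapped, at 429 to 446 CPM in the controls against 413 to 451 CPM. The pericyte receptor Pdgfrb was higher (0.51 ± 0.11), the only call of 12 mural genes, with 2 calls without C57BL/6J-3 or JR5558-3. The call of Pdgfrb was lost with the 6 libraries of 4 weeks alone (adjusted p = 0.0548, edgeR). With the pigment epithelium term 1 vessel growth gene was called higher.

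Matrix genes leaned upward. Of 46 genes of extracellular matrix and TGF-beta signalling, 8 were higher and none was lower, and 40 had a positive log2 fold change, with a median of 0.33. Of all tested genes 3.29% were called higher, and their median was -0.00. Thbs1, described above, is among the 8. Pcolce stood at 11.6, 10.6 and 7.76 CPM in the controls and at 47.4, 22.7 and 27.8 CPM in JR5558. Pcolce, which speeds the cleavage of procollagen, rose by 1.72 ± 0.21 (adjusted p = 2.53e-05). Thrombospondin-4, Thbs4 (1.75 ± 0.34), Tgfbi (1.55 ± 0.33) and the collagen-binding Sparc (0.33 ± 0.07) rose as well. The call of Sparc was lost with the 6 libraries of 4 weeks alone (adjusted p = 0.0626, edgeR). Tgfb2, the main ligand in retina, was at 0.21 ± 0.07 (adjusted p = 0.111) and Col6a1 at 0.21 ± 0.16 (adjusted p = 0.544). With the pigment epithelium term 1 matrix gene was called. Proline hydroxylation of collagen is the subject of the study. Of 27 genes of collagen hydroxylation and proline metabolism 1 was higher and 3 lower, with a median of 0.03, beside 3.29% and 2.89% of all tested genes. P4ha1 gave 83.7, 81.3 and 87.6 CPM in the 3 controls against 70.7, 55.8 and 66.4 CPM in the JR5558 retinas. P4ha1, the catalytic subunit of prolyl 4-hydroxylase, was at -0.39 ± 0.09 (adjusted p = 0.00927). In edgeR P4ha1 lost its call without JR5558-2 (adjusted p = 0.0572), with the 6 libraries of 4 weeks alone (0.0816) and with the pigment epithelium term (0.0608). Its partner P4hb was at 0.04 ± 0.08 (adjusted p = 0.834). The lysyl hydroxylase Plod2 (-0.51 ± 0.14) and the transporter Slc38a2 (-0.35 ± 0.09) were lower, and both calls were lost without C57BL/6J-3 (adjusted p = 0.0833 and 0.113) or JR5558-2 (0.0632 and 0.155), that of Plod2 also without C57BL/6J-2 (0.128) or JR5558-3 (0.133). Slc6a20a was read at 1.83, 0.819 and 4.27 CPM in the control strain, and at 8.07, 5.27 and 8.33 CPM in JR5558. Slc6a20a, a proline transporter, was higher at 1.63 ± 0.38 (adjusted p = 0.0118), and its value was -0.19 with the pigment epithelium term. Its call was also lost with the 6 libraries of 4 weeks alone (adjusted p = 0.0615, edgeR).

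Pigment epithelium genes rose together: 13 of 24 were higher and none was lower, beside 3.29% and 2.89% of all tested genes, and the median was 1.08. The count was 8 without C57BL/6J-1, 6 without JR5558-1 and 7 without JR5558-3. Rpe65 stood at 17.2, 3.22 and 24.7 CPM in the controls and at 51.2, 28.8 and 52.4 CPM in JR5558. Rpe65, the isomerase of the visual cycle, was at 1.55 ± 0.40 (adjusted p = 0.0233), with C57BL/6J-2 far below the rest. The call was lost without JR5558-1 or JR5558-3 (adjusted p = 0.0730 and 0.0760). It was also lost with the 6 libraries of 4 weeks alone (0.102, edgeR) and in DESeq2 (0.103). The melanosome gene Pmel (1.42 ± 0.21), the melanin enzymes Tyrp1 (1.12 ± 0.20) and Dct (1.24 ± 0.24), the lactate transporter Slc16a8 (1.37 ± 0.26) and the keratin Krt18 (0.62 ± 0.09) rose. Pmel gave 8.25, 13.8 and 5.53 CPM in the 3 controls against 25.7, 24.4 and 23.7 CPM in the JR5558 retinas. Whether more pigment epithelium came with the JR5558 retinas was not tested. None of 14 lens genes was called in edgeR (4 had an unadjusted p under 0.05) or in DESeq2, but 3 were lower without JR5558-2 and 9 when no filter on low counts was used. Cryaa was read at 4.81, 2.89 and 64.6 CPM in the control strain, and at 0.212, 14.5 and 0 CPM in JR5558. Cryaa, the lens alpha crystallin, overlapped between the strains, and the median of the list was -1.64.

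Metabolic and stress genes gave scattered calls. The shares over all tested genes were 3.29% higher and 2.89% lower. In glycolysis 2 of 26 were higher and 3 lower, with a median of 0.07 (4 higher without C57BL/6J-1). The calls include enolase Eno1, lower, and its copy Eno1b, higher, whose separate values are uncertain because the pair is near-identical; with copies added to their parents 1 was higher and 2 lower. Of the others, pyruvate dehydrogenase kinase Pdk2 rose (0.40 ± 0.07), and the phosphofructokinase regulators Pfkfb2 (-0.49 ± 0.09) and Pfkfb3 (-0.42 ± 0.11) fell, the latter not without C57BL/6J-1, C57BL/6J-3, JR5558-2 or JR5558-3, with adjusted p of 0.0509 to 0.134. Lactate dehydrogenase Ldha was at -0.13 ± 0.07 (adjusted p = 0.378). Trf stood at 129.8, 67.6 and 157 CPM in the controls and at 419, 237 and 328 CPM in JR5558. Transferrin, Trf, which carries iron, rose by 1.47 ± 0.23 (adjusted p = 3.28e-04), and ferritin light chain Ftl1 by 0.35 ± 0.07; these were the 2 calls of 15 metal genes, which were 4 without C57BL/6J-3. Neither passed with the pigment epithelium term, Trf being at 0.21 (adjusted p = 0.575) and Ftl1 at 0.32 (adjusted p = 0.265). Ftl1 also lost its call with the 6 libraries of 4 weeks alone (adjusted p = 0.0588, edgeR). In cholesterol synthesis and uptake 3 of 20 were higher, 1 without C57BL/6J-2, and 1 was lower, Cyp51 of sterol synthesis (-0.34 ± 0.08), whose call was lost without JR5558-3 (adjusted p = 0.0508). The higher genes included Stard4 (0.48 ± 0.10) and Dhcr7 (0.39 ± 0.10, lost without any 1 of 4 libraries, adjusted p up to 0.141 without C57BL/6J-2). Of 19 cell death genes 1 was higher and 1 lower, with a median of 0.02. The higher one, the receptor Tnfrsf1a, lost its call in edgeR without C57BL/6J-2, C57BL/6J-3, JR5558-1 or JR5558-3 (adjusted p of 0.0571 to 0.113). The lower one was the anti-apoptotic Bcl2. Bcl2 gave 19.3, 19.3 and 19.2 CPM in the 3 controls against 12.5, 14.6 and 10.8 CPM in the JR5558 retinas. That is a log2 fold change of -0.61 ± 0.13, with an adjusted p of 0.00673 in edgeR. With the pigment epithelium term Bcl2 was at -0.48 and not called (adjusted p = 0.363 in edgeR). None of 13 heat shock genes (3 with an unadjusted p under 0.05) and none of 13 mitochondrial messenger RNAs (2) was called in edgeR's test or in DESeq2. Lists for the circadian clock (23 tested), immediate early genes (26), glucocorticoid-responsive genes (14), antioxidant enzymes (22) and the integrated stress response (22) held 1 call each. That is 3.85% to 7.14% of their members, beside 6.17% of all tested genes. Each of these counts went to 0 without at least 1 retina. Leaving out 1 retina also raised some: 4 immediate early genes were lower without JR5558-3, 4 antioxidant enzymes were higher without C57BL/6J-3, and 2 genes were lower in the glucocorticoid list without JR5558-3 and in the stress response list without C57BL/6J-3.

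Several housekeeping genes fell while a near-identical copy elsewhere in the genome rose. Of 158 copies whose parent gene was tested (pseudogenes named after the parent, with Eno1b, Eif3j2 and Amd2 added after their values were seen), 17 were called higher and 4 lower. Of all tested genes 3.29% were called higher and 2.89% lower, and of 868 tested pseudogenes 44 were higher and 18 lower. Among the 17, the parent was called lower for 11 (9 different parents), higher for none and neither for 6. Eno1b, Eif3j2 and Amd2 are all in the 17, and Eno1b and Eif3j2 in the 11, so these counts partly follow from that choice. Atp6v0c, the proton-conducting ring of the vacuolar pump, fell from a mean of 297 CPM in the controls to 121 CPM, whereas Atp6v0c-ps2 on chromosome 6 went from 0.888 to 211 CPM. Their sum was 298 ± 27.4 CPM and 333 ± 50.9 CPM (SD, n = 3), so the pair together overlapped between the strains. Ndufs5, a subunit of complex I, fell from 68.2 to 11.5 CPM and its copy rose from 0.142 to 48.8 CPM. The splicing factor Rnps1 fell from 130.3 to 40.4 CPM while Rnps1-ps went from 0.546 to 47.4 CPM. Enolase Eno1 fell from 2655 to 1840.2 CPM and its copy Eno1b rose from 55.0 to 668 CPM.

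These copies are nearly the same in sequence, so reads can be assigned to either and the value of each gene alone is uncertain. Over the coding sequence in the GENCODE M21 transcripts (GRCm38), Atp6v0c-ps2 differed from Atp6v0c at 1 of 465 bases, Ndufs5-ps from Ndufs5 at 2 of 318, Rnps1-ps from Rnps1 at 5 of 843 aligned bases and Eno1b from Eno1 at 8 of 1302. Stretches of 60 coding bases around the differences, in capitals, are shown for 3 pairs, since these bases are what tells the copies apart. Atp6v0c lies at chr17:24163866-24169702 and its copy at chr6:37806086-37806550, Ndufs5 at chr4:123712710-123718202 and its copy at chr16:42955631-42955949, Rnps1 at chr17:24414565-24425901 and its copy at chr6:7982541-7983383, and the strand follows each gene.
Atp6v0c: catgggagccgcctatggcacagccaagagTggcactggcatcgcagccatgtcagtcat
Atp6v0c-ps2: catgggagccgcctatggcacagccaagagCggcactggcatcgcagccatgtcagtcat
Ndufs5: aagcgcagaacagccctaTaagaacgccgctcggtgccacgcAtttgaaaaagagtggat
Ndufs5-ps: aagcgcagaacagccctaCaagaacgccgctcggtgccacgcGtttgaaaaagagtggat
Rnps1: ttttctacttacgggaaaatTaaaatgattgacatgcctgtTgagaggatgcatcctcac
Rnps1-ps: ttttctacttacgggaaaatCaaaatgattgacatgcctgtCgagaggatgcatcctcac
Only the capital letters differ within each pair. JR5558 sequence itself was not read here.

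When the counts of each copy were added to its parent before the fit, an alternative chosen after the data were seen, 5 of the 9 parents were no longer called. Atp6v0c with its copy was at 0.16 ± 0.09 (adjusted p = 0.380) and Ndufs5 at -0.18 ± 0.13 (adjusted p = 0.488); Eno1 was at -0.11 ± 0.06 (adjusted p = 0.334), the ribosomal Rps13 at -0.46 ± 0.18 (adjusted p = 0.157) and the mitochondrial ribosomal Mrpl48 at -0.19 ± 0.08 (adjusted p = 0.229). Rnps1 was still lower at -0.58 ± 0.09 (adjusted p = 2.21e-04), as were Rps2 at -0.46 ± 0.07 (adjusted p = 4.32e-04), Rps15a at -0.27 ± 0.08 (adjusted p = 0.0446) and the initiation factor Eif3j1 at -0.36 ± 0.10 (adjusted p = 0.0369). This touches the ribosomal list, in which 5 of 74 genes were lower and none higher, beside 2.89% and 3.29% of all tested genes. The median was -0.04, and without C57BL/6J-3 the lower count was 12. Rpl3 was the clearest of the 5. Rpl3 was read at 393, 379 and 400.4 CPM in the control strain, and at 233, 221 and 242 CPM in JR5558. On the log2 scale the difference was -0.75 ± 0.06 (edgeR, adjusted p = 2.24e-07). Rps2 (-0.47 ± 0.07), Rpl14 (-0.37 ± 0.07), Rps15a (-0.32 ± 0.08, not without JR5558-2, adjusted p = 0.0718) and Rps13 (-1.12 ± 0.28, not without C57BL/6J-2 or JR5558-1 or JR5558-3, adjusted p of 0.0674 to 0.0837) were the others. Of 79 nuclear genes of oxidative phosphorylation 1 was higher and 2 lower, Ndufs5 and Atp5e (-1.86 ± 0.15), with a median of 0.04 (4 lower without C57BL/6J-3), and of 17 vacuolar pump genes Atp6v0c was the only call.

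**Figure D3:**
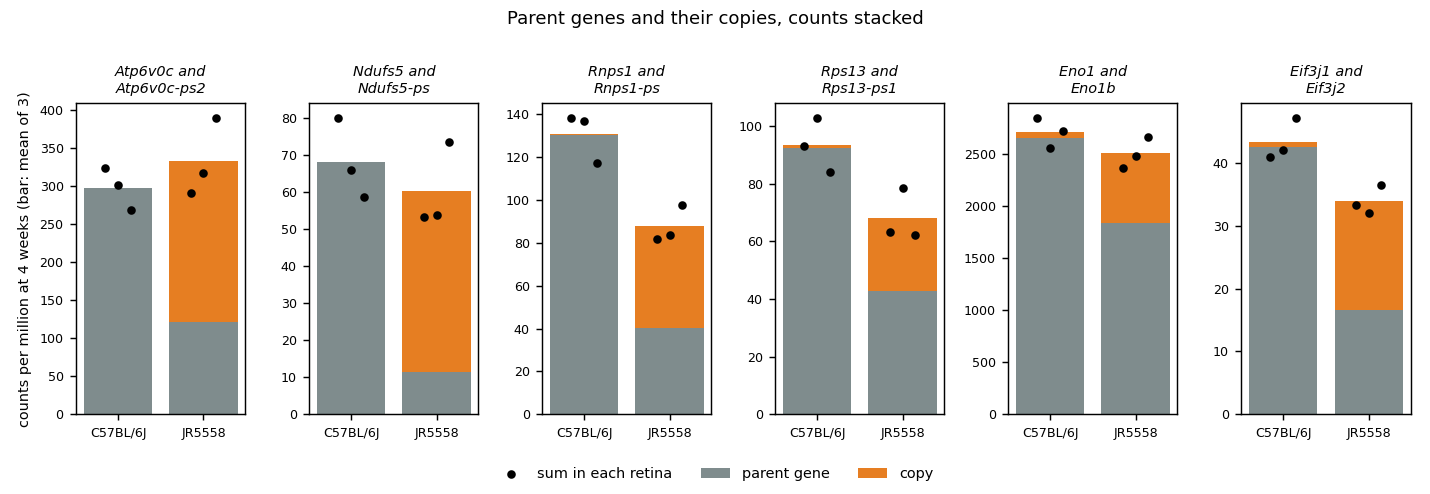
Stacked bars give the mean CPM of the parent gene (grey) and its copy (orange) in 3 retinas of each strain at 4 weeks, and points give the sum in each retina. The copy holds more and the parent fewer CPM in JR5558 than in C57BL/6J for each pair shown; the sums overlap for Atp6v0c, Ndufs5 and Eno1 and lie apart for Rnps1, Rps13 and Eif3j1.

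Calls were unevenly spread over the genome. The share of tested genes called was 10.6% on chromosome 18, 9.75% on chromosome 8 and 9.03% on chromosome 14, and 3.20% on chromosome 3. Of 234 windows of 10 Mb with at least 20 tested genes, 16 had over 15% called and together held 239 of the 1095 calls. The highest was the window from 30 to 40 Mb of chromosome 8, with 16 of 42 genes called, 12 of them lower. Within 5 Mb of Jak3 on chromosome 8, 26 of 148 other genes were called (17.6%), 7 higher and 19 lower, among them Nxnl1, Lpl and Plvap described above. Within 5 Mb of Crb1 on chromosome 1, 6 of 61 were called (9.84%, beside 6.17% of all tested genes), 3 higher and 3 lower; the count was 3 without JR5558-3. Positions are those of the deposited table, whose build could not be settled. Neighbouring genes are not independent of each other, and how much of this spread the 2 mutant alleles or other alleles of the strains account for was not tested.

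**Figure D4:**
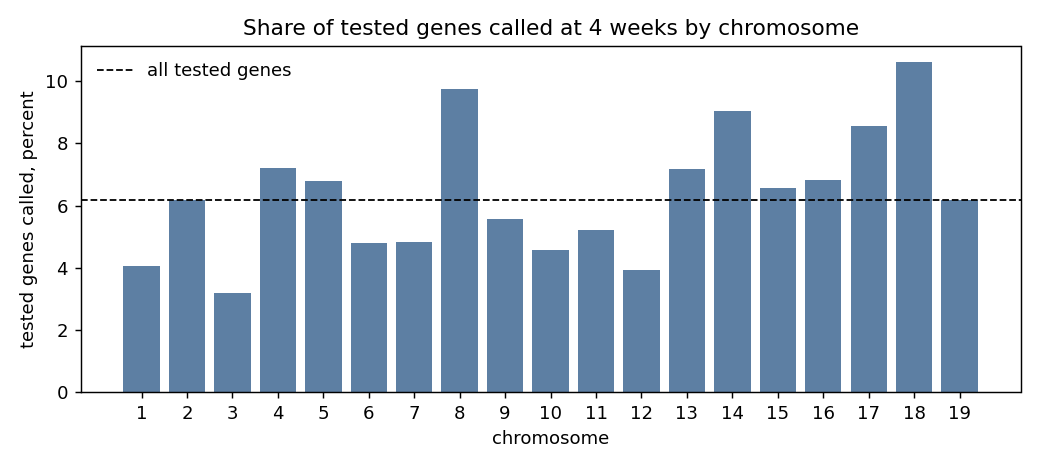
Bars give the percent of tested genes called at 4 weeks on each numbered chromosome, and the dashed line the share over all tested genes. Chromosomes 18, 8 and 14 stand highest and chromosome 3 lowest.

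The strain difference was then read in other mice, the 6 retinas of 8 weeks, which share no library with those of 4 weeks. The fit of all 12 libraries shares 1 estimate of each gene's spread between the ages, so the calls of the 2 ages are not independent. With the 6 libraries of 4 weeks alone, 537 of the 1095 genes were called. There 936 genes were called (5.28%). Of the 1095 genes called at 4 weeks, 1003 (91.6%) had the same direction at 8 weeks, against 61.3% of the uncalled genes. Of them, 547 were called at both ages in the same direction, which is 50.0% of the 4-week calls and 58.4% of the 8-week calls, and 1 was called in opposite directions. Among the 376 genes with at least a 2-fold change, 273 (72.6%) were called again. The 8-week mice of both strains held Xist and no Ddx3y, so genes called at both ages differed between strains also where this marker did not. Crb1 was at -1.55 ± 0.10, Pde6c at -1.98 ± 0.09, Edn2 at 2.80 ± 0.29 and Ppara at -4.72 ± 0.34 at 8 weeks, close to their values at 4 weeks.

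edgeR's test of the difference between ages called 9 genes (0.0507%). Of these, 4 were called at 4 weeks, among them Etnppl, H3f3b and A930033H14Rik, each with the opposite sign at 8 weeks. Etnppl, which breaks down phosphoethanolamine in glia, was lower at 4 weeks (-1.03 ± 0.16) and at 0.43 ± 0.15 at 8 weeks (adjusted p of the difference = 0.0125). Etnppl stood at 13.4, 16.2 and 16.1 CPM in the controls and at 8.41, 6.83 and 7.17 CPM in JR5558. The replacement histone H3f3b was at 0.46 ± 0.07 and -0.21 ± 0.07. For P4ha1 the values were -0.39 ± 0.09 and 0.19 ± 0.09 at the 2 ages, and the adjusted p of the difference was 0.139. At 4 weeks the strains also differed in Xist, which they did not at 8 weeks, so age and sex cannot be told apart in this test. Without JR5558-2 at 4 weeks 1 gene was called in it, without JR5558-3 it was 24 and without C57BL/6J-3 it was 23.

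**Figure D5:**
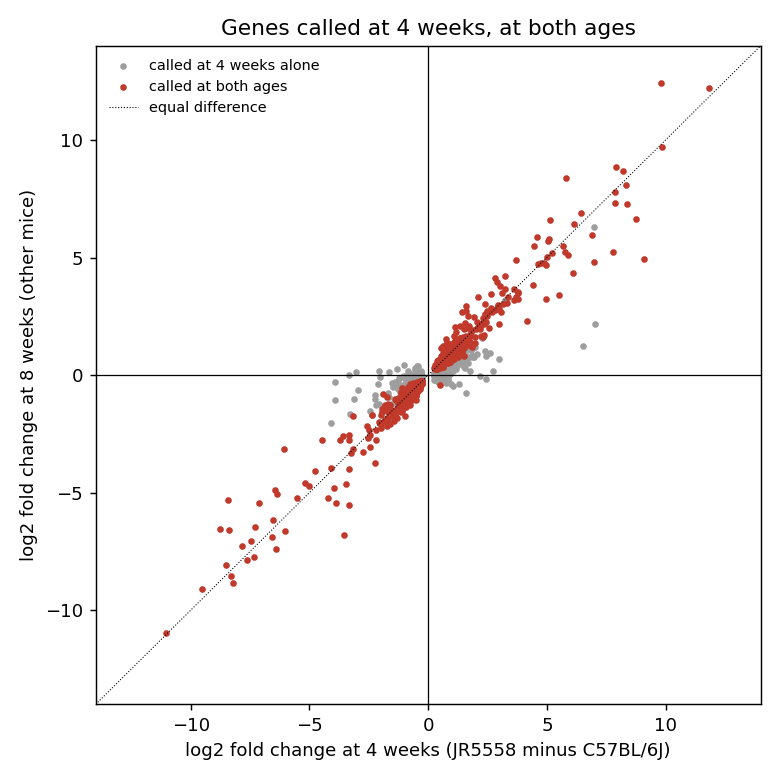
Each point is 1 of the 1095 genes called at 4 weeks, with its log2 fold change at 4 weeks on the x axis and at 8 weeks, in other mice, on the y axis, and a dotted line where the values are equal. Genes called at both ages (red) lie along the line at all sizes, and those called at 4 weeks alone (grey) have smaller values, with a median size of 0.51 against 1.00.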

How the data were processed

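Retinal RNA of 12 mice was sequenced, 3 per strain and age. Reads were trimmed with fastp, aligned with HISAT2 2.0.5 to mm10 and counted with featureCounts 1.5.0-p3, per the submitters' processing notes. The whole numbers tested here are the authors' deposited read counts per gene, not normalized. The deposited FPKM values were read but no printed value rests on them. The log2 fold changes and p-values of the authors' deposited table served only for the overlap of calls, and how they were made is not given in the sources used here.

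Genes of X and Y were removed, genes with low counts were filtered (filterByExpr, at least 10 counts, 15 in all), and all 12 libraries were fitted with edgeR 4.0.16 (R 4.3.3; TMM, quasi-likelihood F test, 1 mean per strain and age), with Benjamini-Hochberg adjustment over 17735 genes and a threshold of 0.05. Standard errors are the size of the log2 fold change over the square root of F. The script was tested on simulated counts. The 6 libraries held 18029611 to 23739886 counts. Named genes are the 10 with the largest change and the 10 with the smallest p in each direction, up to 5 called and 3 uncalled (most abundant) per list, and up to 5 per direction of the age difference. The choices of 10 took only called genes whose groups did not overlap, with a mean of at least 1 CPM in the higher group. They left out pseudogenes and unnamed gene models. Another 11 genes were chosen after their values were seen. A few genes picked by this rule are not reported here. The genes, 44 lists and tests were chosen with earlier results of these data known. Replicate numbers did not pair the samples: same-numbered retinas correlated at -0.07, 0.03 and -0.09 in their deviations from group means. The replicates are separate mice. Alternatives were another normalization (RLE), other filters, fewer libraries, X and Y kept, a replicate block, protein-coding genes alone, a pigment epithelium term, DESeq2 1.42.0 and, added after seeing the data, copies summed with their parents.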

Additional observations from a re-analysis of the deposited data

Results flagged for a closer look

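The interaction term of the edgeR fit called 9 genes, whose strain difference was not the same at both ages; 8 are given. The log2 strain difference at 8 weeks minus that at 4 weeks was -0.67 for H3f3b, -0.83 for Gm4792, -0.61 for Slc38a3 and -0.91 for A930033H14Rik. It was 1.37 for Ip6k2, 0.89 for Usp2, 1.45 for Etnppl and 1.82 for Dio2. The JR5558 retinas of 4 weeks held 0 to 5 counts of Xist and the other libraries 7772 to 22988, so age and sex cannot be told apart here. Among chromosome X genes, which the comparison leaves out, 32 of 592 tested genes (5.41%) were called between the strains at 4 weeks, 13 higher and 19 lower in JR5558; sex and strain cannot be told apart for them.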

How the results depend on the processing

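Of 1095 calls, 537 (312 higher, 225 lower) were made with the 6 libraries of 4 weeks alone, 376 when at least a 2-fold change was required, and 227 (118 higher, 109 lower; 154 at least 2-fold) with the pigment epithelium term, which also gave 267 calls at 8 weeks; 207 of the 227 were among the 1095. Protein-coding genes alone gave 223 calls of at least 2-fold, fewer genes being tested. Without 1 library the calls ran from 790 to 1146 (410 to 592 higher, 380 to 554 lower, 303 to 370 at least 2-fold), those at 8 weeks from 940 to 1361 and those of the age difference from 1 to 24. The age difference gave 88 calls without a filter on low counts, 17 with X and Y kept and 49 in DESeq2. With the replicate block 790 genes were called at 4 weeks (772 shared) and 5 in the age difference; the numbers do not pair the retinas, and not every retina correlated best with its own number. With the pigment epithelium term 3 named genes changed sign, Rpe65 to -0.65, Slc6a20a to -0.19 and Slc16a8 to -0.020, and Atp6v0c did so, to 0.16, with its copy added. Rpe65 and Slc16a8 are among the genes averaged in that term, so a loss of their difference is built in. For Atp6v0c the change of sign follows from the counts of its copy that were added. For Slc6a20a the cause was not tested. With the 6 libraries of 4 weeks alone, 34 of the 136 named genes called lost their call. Of the 136, 43 kept their call in every alternative that tested them, apart from Atp6v0c and Slc16a8. Both are counted in the 43 but did not pass in the alternative where their sign changed. Low depth limits calls for genes with few counts.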
